A study of Mus musculus with 20 samples.

Results

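The genes described here are the solute carriers expressed in mouse liver, apart from the Slc22a family and 6 further genes (Slc10a1, Slc27a5, Slc1a2, Slc2a2, Slc25a15 and Slc40a1). They were chosen by level: of 331 names made of Slc, a number, the letter a and a number in a table of 36128 genes, 168 had a mean of 1 or more FPKM (fragments per kilobase of exon, scaled to the depth of the library) over the 20 livers. Removing 14 Slc22a genes and the 6 genes named above left 148. The mean level was therefore no finding. The rule tests no difference between sexes or strains, but a gene high in 1 strain or 1 sex alone can pass through that group. The genes just inside the threshold were Slc45a4 at 1.05, Slc17a8 at 1.06 and Slc25a26 at 1.08 FPKM, and those just outside were Slc41a1 at 0.971, Slc4a7 at 0.955 and Slc5a6 at 0.953 FPKM.

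Solute carriers are membrane proteins that move amino acids, sugars, lipids, metal ions, nucleosides and organic acids across the plasma membrane and the membranes of organelles, either down a gradient or coupled to the movement of another ion. In the liver they bring in substrates of gluconeogenesis, ureagenesis and lipid synthesis, and the Slc25 family of the inner mitochondrial membrane exchanges metabolites between the matrix and the cytosol. Livers of male and female mice differ in many genes of metabolism, in large part through the sex-dependent pattern of growth hormone secretion.

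Liver RNA was taken at 8 weeks of age from 5 males and 5 females of C57BL/6J (B6), a classical inbred strain, and from 5 males and 5 females of CAST/EiJ (CAST), an inbred strain derived from wild mice, with 1 polyA-selected library per liver. Reads counted on genes ranged from 7969482 to 35328573 per library. A separate strain entry of the sample records named the other strain for all 5 B6 females and all 5 CAST males, and the titles were followed. Elovl3, a male-biased liver gene, was between 49.97 and 143 FPKM in males and between 0.602 and 2.53 FPKM in females. Hepatocyte markers were abundant in every library, and kidney tubule markers summed to no more than 0.0439 FPKM.

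Before any comparison of strains, the row names have to be described. In the count table and the FPKM columns of CAST, the rows of certain genes carried the name of a neighbour in alphabetical order. The stored names end in a separator, and sorting them with or without that last character gives orders that differ for 5455 of the 36128 names, in particular where one name continues another, as Slc25a1 and Slc25a10 do. Over those 5455 names, the correlation across genes of log2 counts per library total between CAST and B6 was 0.630 when rows were matched by name, and 0.978 when each CAST row took the name at its place in the other order. Over the 30673 names that hold the same place in both orders it was 0.971. These are correlations over genes, which share libraries and are not independent replicates.

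Among the 148 solute carriers, 61 names changed place and 87 kept it. For the 61, the correlation between strains was -0.271 by name and 0.963 in the other order, against 0.865 for the 87. The 61 were chosen by a mean over both strains of the deposited values, which can lower the correlation by name. Over all 116 solute carrier names that change place, at any level, it was 0.285 by name and 0.971 in the other order. Slc25a13 (citrin, the aspartate-glutamate carrier of the liver, chr6:5991219-6167173 in mm9) is an example among the 61. It was between 28 and 38 FPKM in the 10 B6 livers, but the CAST row of that name held between 0.143 and 0.336 FPKM. The CAST row named Slc25a12, after a related carrier of other tissues, held between 46.5 and 71.2 FPKM. In the other order, the CAST values of Slc25a13 were 49.7, 50.8, 47.3, 55.5 and 42.8 FPKM in males and 53.9, 55, 54.1, 62.2 and 67.3 FPKM in females. Likewise Slc6a13, a transporter of taurine and GABA, had means of 47.8 ± 4.3 and 51.2 ± 5.67 FPKM (SD, n = 5) in B6 males and females, and in CAST 0.0075 and 0.00521 FPKM by name but 39.6 ± 4.05 and 55.1 ± 2.82 FPKM in the other order. Values in which every CAST row takes the name of the other order are called re-paired here.

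**Figure D1:**
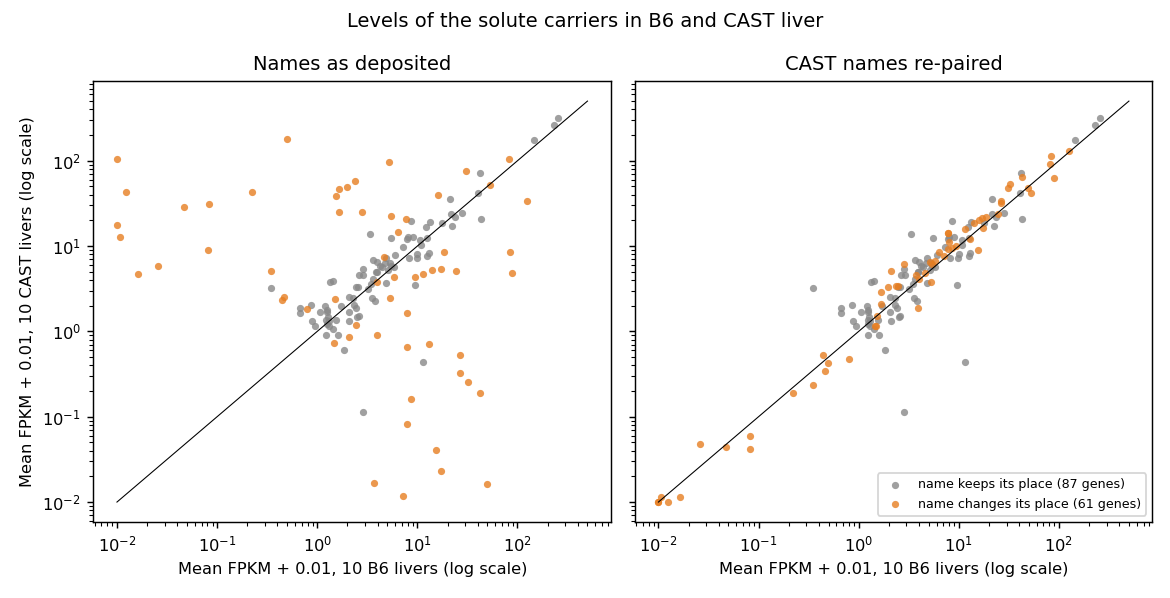
Mean FPKM + 0.01 of the 148 solute carriers in 10 B6 livers (x axis, log scale) against 10 CAST livers (y axis, log scale), with names as deposited on the left and with CAST names re-paired on the right; grey points are the 87 names that keep their place, orange points the 61 that change it, and the line marks equal levels. The orange points, chosen by their mean as deposited, are scattered on the left (correlation -0.271) and lie along the line on the right (0.963).

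In what follows, each comparison is counted under both namings. CAST values of the 87 names that keep their place are as deposited, and those of the other 61 are re-paired unless stated. Sex comparisons within B6 are not touched. The choice of genes is touched: 15 of the 148 passed 1 FPKM only with the deposited CAST names (among them Slc25a14, Slc25a54, Slc16a14, Slc25a27 and Slc26a10), and 3 others (Slc25a34, Slc2a1 and Slc38a11) passed only after re-pairing, so that 136 genes met the rule with re-paired names, 133 of them among the 148. The CAST row named Slc25a14, at means of 173 and 187 FPKM in males and females, is in the other order that of Slc25a15, which the rule leaves out by name.

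The solute carriers with the highest levels were plasma membrane transporters of amino acids and a fatty acid transporter. Slc38a3, a glutamine transporter, was at 258 ± 40.4 and 251 ± 30.02 FPKM in B6 males and females and at 314 ± 20.4 and 319 ± 11 FPKM in CAST males and females (SD, n = 5). Slc27a2, which takes up and activates very long-chain fatty acids, was at 217 ± 23, 243 ± 18.8, 248 ± 29.8 and 282 ± 25.9 FPKM in the same order of groups. Slc38a4, a transporter of neutral amino acids, was at 155 ± 38.8, 137 ± 17.1, 175 ± 9.14 and 172 ± 15.6 FPKM. None of these 3 genes differed by more than 2-fold between sexes or strains.

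Below them came carriers of the inner mitochondrial membrane. Slc25a5, an ADP/ATP exchanger, had B6 means of 132 ± 1.75 FPKM in males and 118 ± 4 FPKM in females and re-paired CAST means of 128 ± 14.4 and 131 ± 6.09 FPKM. Slc25a3, the phosphate carrier, was at 86.1 ± 3.4 and 81 ± 2.34 FPKM in B6 and 111 ± 7.64 and 118 ± 5.02 FPKM in CAST. Slc25a39, which carries glutathione, was at 87.5 ± 3.87, 76 ± 2.62, 91.2 ± 7.29 and 92.2 ± 7.59 FPKM. Among plasma membrane transporters, Slc7a2, which carries arginine and other cationic amino acids, reached 44.2 ± 21.1 and 40.2 ± 10.3 FPKM in B6 and 69.6 ± 4.66 and 73.5 ± 19.6 FPKM in CAST.

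The study asked which genes are sex-biased in each strain and whether the bias is shared. A gene was called when it differed more than 2-fold at an adjusted p under 0.05 (edgeR quasi-likelihood test, Benjamini-Hochberg over all genes tested). In B6, 7 of the 145 solute carriers in the B6 count table were called (4.83%), against 2.4% of all 25690 genes tested and 2.49% of the genes with a mean of 1 FPKM or more. Slc41a2, Slc2a5 and Slc17a8 were higher in males (3 genes, against 1.16% of all genes), and Slc16a5, Slc16a7, Slc13a3 and Slc26a10 were higher in females (4 genes, against 1.24%). Of these, Slc26a10 met the rule only with the deposited CAST names, and averaged 0.624 FPKM over the 20 livers after re-pairing. Slc16a5 was under 1 FPKM in every male of both strains and met the rule through the females. Slc17a8 averaged over 1 FPKM in B6 males alone and met the rule through them. The share by sex was not recomputed without such genes, so 4.83% is not read against the shares of other genes. In CAST, 3 of 148 deposited names were called (2.03%, against 2.05% of 24722 genes), and with re-paired names 2 of 145 (1.38%, again against 2.05%). These were Slc16a5 and Slc25a27, both higher in females, as were 1.17% of all genes, while 0 solute carriers and 0.882% of all genes were higher in males. Slc25a27 averaged 0.474 FPKM over the 20 livers after re-pairing and so did not meet the rule with re-paired names. Of the genes with a mean of 1 FPKM or more, 2.42% were called in CAST. Slc16a5 was the only solute carrier called in both strains under either naming. The count was 2 when the replicate number was added to the fit. It was also 2 without CAST male replicate 4 or 5 or CAST female replicate 1, 2 or 3.

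The monocarboxylate transporters (Slc16 family) move lactate, pyruvate, ketone bodies and, in some members, aromatic amino acids. Slc16a5 (chr11:115323788-115335712 in mm9) was at 0.535, 0.83, 0.412, 0.611 and 0.731 FPKM in the 5 B6 males and at 2.9, 1.45, 1.99, 3.95 and 7.28 FPKM in the 5 B6 females. In CAST it was at 0.12, 0.0357, 0.0626, 0.0933 and 0.0846 FPKM in males and at 3.19, 3.57, 1.35, 4.02 and 4.32 FPKM in females. The sexes did not overlap in either strain, and every CAST male was below every B6 male. The male over female log2 fold change was -2.46 (SE 0.334, adjusted p = 0.000106) in B6 and -5.66 (SE 0.327, adjusted p = 8.51e-10) in CAST, where the males rested on 5 to 8 reads each.

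The sex difference of Slc16a5 itself differed between strains. The interaction, the B6 minus the CAST log2 fold change, was 3.21 in a joint fit of the 4 groups (SE 0.599, adjusted p = 0.00269). The B6 over CAST log2 fold change was 0.03 in females (SE 0.297, adjusted p = 0.962) and 3.24 in males (SE 0.506, adjusted p = 6.2e-06). The interaction was not called by limma on log2(FPKM + 1), where it was 0.59, a scale that understates changes below 1 FPKM.

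Slc16a7, a high-affinity transporter of lactate and pyruvate (chr10:124663520-124766019), had 5.72, 4.22, 5.4, 4.28 and 7.01 FPKM in B6 males and 14.1, 11.5, 14.3, 15.9 and 16.1 FPKM in B6 females, without overlap. Its CAST values were 4.54, 4.51, 4.02, 6.87 and 4.96 FPKM in males and 8.74, 8.57, 7.72, 11.9 and 10.2 FPKM in females, again without overlap. The log2 fold change was -1.41 in B6 (SE 0.134, adjusted p = 1.23e-06) and -0.99 in CAST (SE 0.137, adjusted p = 8.17e-05), just short of 2-fold. The interaction was -0.401 (adjusted p = 0.383).

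At smaller folds, more of the family was higher in B6 females. At an adjusted p under 0.05 and any fold, 26 of 145 solute carriers differed by sex in B6 (17.9%, against 7.55% of all genes), 18 of them higher in females, and 7 of the 8 tested monocarboxylate transporters were among these 18. Besides Slc16a5 and Slc16a7 they included Slc16a12, a creatine transporter (-0.95), Slc16a11 (-0.81), Slc16a10, which carries aromatic amino acids (-0.57), and Slc16a1, the widespread lactate transporter (-0.51). Slc16a6, with a log2 fold change of 0.12 (adjusted p = 0.835), did not pass. In CAST with re-paired names, 29 of 145 solute carriers passed at any fold (against 5.65% of all genes), 19 of them higher in females, and 3 of 8 monocarboxylate transporters were among them: Slc16a5, Slc16a7 and Slc16a12 (-0.64). In CAST, Slc16a1 and Slc16a10 gave -0.06 and 0.03 (adjusted p = 0.826 and 0.93). The family was singled out after its values were seen. All genes tested include many of low level. The any-fold share was not computed for genes with a mean of 1 FPKM or more, so no excess is read from it.

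Slc13a3, a sodium-coupled transporter of succinate and other dicarboxylates (chr2:165230528-165298730), was at 2.15, 1.39, 1.5, 1.8 and 1.84 FPKM in B6 males and 3.88, 5.34, 3.25, 3.69 and 3.47 FPKM in B6 females. CAST males had 4.64, 3.28, 6.3, 5.38 and 9.8 FPKM and CAST females 4.98, 4.84, 5.35, 4.6 and 5.07 FPKM. The B6 males were the low group and overlapped with no other. The log2 fold change by sex was -1.16 in B6 (SE 0.149, adjusted p = 5.81e-05) and 0.16 in CAST (SE 0.197, adjusted p = 0.724), and the interaction was -1.31 (SE 0.278, adjusted p = 0.00966). The sex call in B6 was lost by limma on log2(FPKM + 1) (-0.84).

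Slc41a2, a magnesium transporter (chr10:82693593-82800627), was at 3.34, 6.77, 4.35, 7.49 and 3.09 FPKM in B6 males and 1.77, 1.16, 1.49, 2.3 and 1.46 FPKM in B6 females. The CAST livers had 15.1, 14.1, 22.4, 16.1 and 22.8 FPKM in males and 8.12, 8.64, 11, 10.3 and 9.77 FPKM in females. All 4 groups were apart from each other. Males exceeded females by a log2 fold change of 1.63 in B6 (SE 0.219, adjusted p = 9.39e-05) and 0.85 in CAST (SE 0.143, adjusted p = 0.000793), and the interaction was 0.79 (adjusted p = 0.173). CAST exceeded B6 in both sexes, with B6 over CAST log2 fold changes of -1.84 in males and -2.63 in females (adjusted p = 1.95e-08 and 4.13e-11).

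Slc2a5, the fructose transporter (chr4:149493392-149518278), was at 1.27, 1.06, 0.947, 0.588 and 0.736 FPKM in B6 males and 0.481, 0.329, 0.488, 0.164 and 0.563 FPKM in B6 females. CAST males had 1.44, 1.6, 1.89, 1.73 and 1.73 FPKM and CAST females 2.05, 1.42, 1.52, 1.52 and 1.37 FPKM, so that the sexes were apart in B6 and overlapped in CAST. The log2 fold change by sex was 1.22 in B6 (SE 0.264, adjusted p = 0.00728) and 0.01 in CAST (adjusted p = 0.98). The interaction of 1.22 (SE 0.306, adjusted p = 0.0298) lost its call without B6 male replicate 1 (1.07), CAST male replicate 1 (1.16) or CAST female replicate 1 (1.101), and by limma on log2(FPKM + 1) (0.39) or log2(FPKM + 0.1) (0.95). The sex call in B6 was lost by limma on log2(FPKM + 1) (0.45).

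Slc17a8, a vesicular glutamate transporter (chr10:89036765-89083998), was at 1.61, 0.855, 1.73, 0.945 and 3.18 FPKM in B6 males and at 0.876, 0.795, 0.931, 0.797 and 0.493 FPKM in B6 females. The sexes overlapped and replicate 5 stood highest among the males. Its log2 fold change of 1.12 (SE 0.285, adjusted p = 0.0203) lost its call without B6 male replicate 5 (0.73) and without B6 female replicate 5 (0.996). The call was also lost when the replicate number was added to the fit (0.97). Slc26a10, of the anion exchanger family (chr10:126608449-126617701), was at 0.672, 0.236, 0.667, 0.433 and 0.547 FPKM in B6 males and 1.02, 1.12, 1.3, 1.03 and 0.856 FPKM in B6 females, without overlap. Its log2 fold change was -1.05 (SE 0.235, adjusted p = 0.00904), and it was not called without B6 male replicate 2 (-0.85), B6 male replicate 4 (-0.995) or B6 female replicate 3 (-0.98). Limma ended both calls, with log2 fold changes of 0.52 and -0.46 on log2(FPKM + 1) and of 0.88 and -0.98 on log2(FPKM + 0.1). Both genes averaged under 1 FPKM in one sex.

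In CAST, the other call belonged to Slc25a27, the mitochondrial uncoupling protein UCP4 (chr17:43778849-43804125), after re-pairing. It was at 0.528, 0.28, 0.264, 0.38 and 0.187 FPKM in CAST males and 0.83, 0.534, 0.685, 0.561 and 0.911 FPKM in CAST females, without overlap. The log2 fold change was -1.23 in CAST (SE 0.223, adjusted p = 0.0016) and -0.54 in B6 (adjusted p = 0.125). The CAST call was lost by limma on log2(FPKM + 1) (-0.36) or log2(FPKM + 0.1) (-0.94). The same reads carried the name Slc25a26, the S-adenosylmethionine carrier, in the deposited table. With re-paired names, Slc25a26 itself gave 0.07. The third deposited CAST call was in the row named Slc38a10 (-1.103), which in the other order is that of Slc38a11. That gene is outside the 148 but meets the rule with re-paired names, where Slc25a27 does not.

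**Figure D2:**
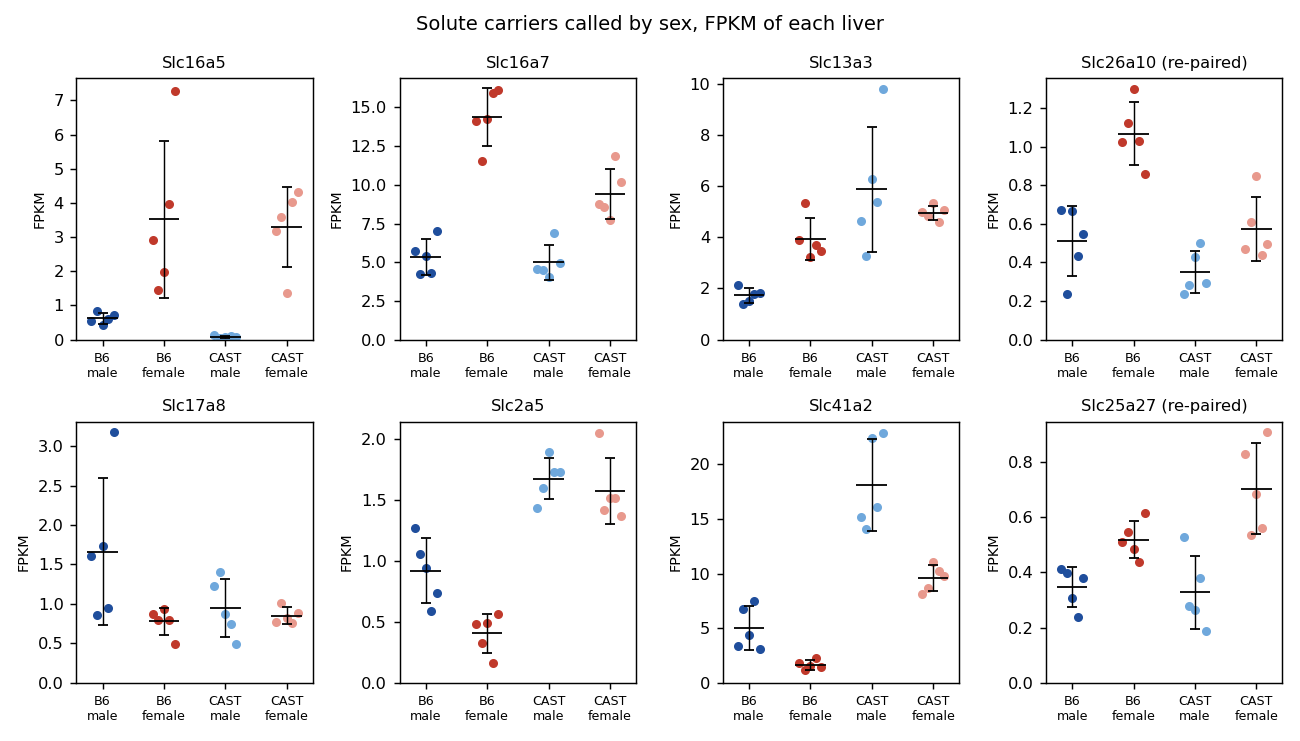
FPKM of each liver (y axis, linear from 0) for the 8 solute carriers called by sex in B6 or CAST, in B6 males, B6 females, CAST males and CAST females (5 livers each); points are livers, horizontal lines group means and error bars SD, and CAST values of Slc26a10 and Slc25a27 are re-paired. Slc16a5 is higher in females of both strains, whereas the B6 males are the low group for Slc13a3.

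Markers of other cell types moved with sex in B6. Red blood cell markers, of which Hba-a1 and Hbb-b1 were at 0, summed to between 26.9 and 36.5 FPKM in B6 males and between 2.83 and 5.42 FPKM in B6 females, and to no more than 3.25 FPKM in CAST. Kupffer cell markers (5 of 5 measured) summed to between 12.03 and 23.7 FPKM in B6 males and between 29.3 and 34.1 FPKM in B6 females. Endothelial cell markers (5 of 5) were between 14.9 and 18.3 FPKM in B6 males and between 19.3 and 24.7 FPKM in B6 females, and stellate cell markers (5 of 5) between 5.02 and 6.31 FPKM and between 7.49 and 10.3 FPKM. Hepatocyte markers (6 of 6) summed to between 20460 and 21420 FPKM in males and between 25300 and 30970 FPKM in females of B6, and to between 17080 and 19050 FPKM and between 20080 and 26100 FPKM in CAST. The part of these cells in the sex differences was not tested. In whole liver, fewer cells of a type and less RNA per cell cannot be told apart.

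**Figure D3:**
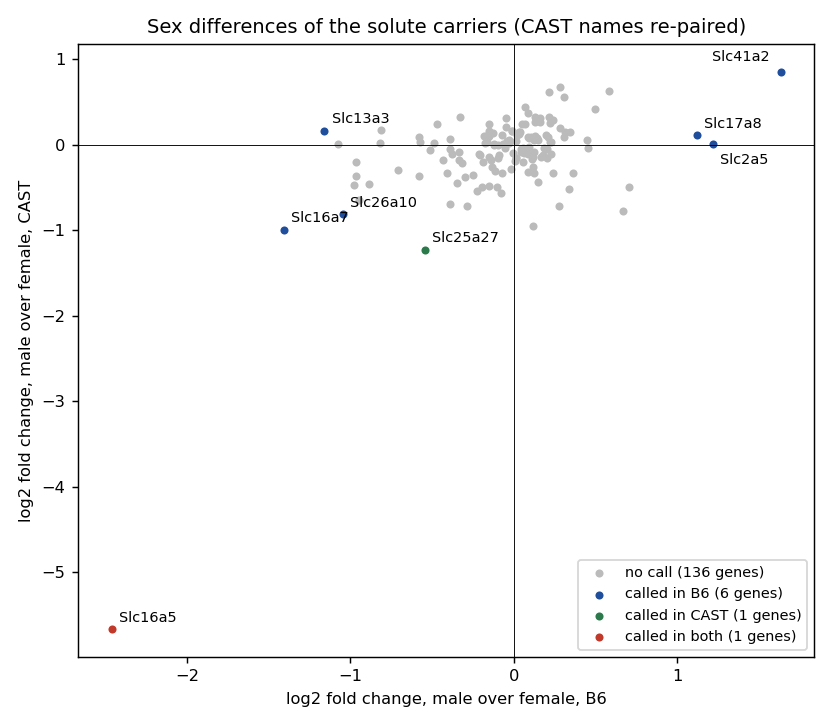
Log2 fold change of males over females in B6 (x axis) and in CAST with re-paired names (y axis), where each point is a solute carrier tested in both strains and colours mark calls in B6 (6 genes), in CAST (1 gene), in both (1 gene, Slc16a5) and in neither (136 genes). Slc16a5 lies far below the other genes, at -2.46 and -5.66.

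With all 4 groups in a joint fit, the sex difference was tested for a difference between strains (interaction, called at an adjusted p under 0.05). As deposited, 15 of 147 solute carriers were called (10.2%, against 2.28% of 25779 genes, and 5.19% of the genes with a mean of 1 FPKM or more). With re-paired names, 9 of 145 were called (6.21%, against 2.01% of 25679 genes, and 4.81% of the genes with a mean of 1 FPKM or more). These counts were not stable. Leaving out each liver gave 6 to 17 calls as deposited and 4 to 9 re-paired, and DESeq2 gave 27 and 16. Of the 9 re-paired calls in the main fit, 6 keep their place and were called under both namings: Slc16a5, Slc13a3 and Slc2a5 above, and Slc27a1, Slc4a4 and Slc23a2.

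Slc27a1, a long-chain fatty acid transporter (chr8:74092826-74110607), was at 1.23, 1.08, 1.3, 1.01 and 1.09 FPKM in B6 males and 1.83, 2.15, 2.49, 1.68 and 2.11 FPKM in B6 females. In CAST it was at 1.08, 1.12, 0.812, 0.836 and 0.732 FPKM in males and 0.734, 0.885, 0.732, 0.975 and 1.07 FPKM in females. The B6 females stood above all other livers. Its interaction of -0.82 (adjusted p = 0.0202) lost its call without B6 female replicate 3 (-0.76) or CAST female replicate 1 (-0.76).

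Slc4a4, a sodium bicarbonate cotransporter, had means of 4.84 ± 0.383 and 9.65 ± 2.2 FPKM in B6 males and females and 9.27 ± 1.65 and 10.1 ± 1.99 FPKM in CAST (SD, n = 5). Slc23a2, a transporter of vitamin C, had means of 1.92 ± 0.264, 2.92 ± 0.546, 2 ± 0.321 and 1.78 ± 0.127 FPKM in the same order. Both were higher in females of B6 at any fold (-0.97 and -0.58, adjusted p = 2.33e-05 and 0.00734), and in CAST they gave -0.198 and 0.09 (adjusted p = 0.459 and 0.723). The interactions were -0.76 and -0.66 (adjusted p = 0.0291 and 0.0432), and 8 and 14 of 28 alternative settings lost these calls.

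The other 3 were names that change place. Slc25a47, a mitochondrial carrier found mainly in liver, was at 133, 75.8, 94.5, 83.9 and 105 FPKM in B6 males and 76, 93.9, 75, 80.4 and 71.5 FPKM in B6 females. Its re-paired CAST values were 54.9, 66.9, 36.4, 47.7 and 61.1 FPKM in males and 69.4, 58.8, 78.5, 84.5 and 68.4 FPKM in females. The log2 fold changes by sex were 0.34 in B6 (adjusted p = 0.151) and -0.52 in CAST (adjusted p = 0.0392), with an interaction of 0.85 (adjusted p = 0.0369). Slc25a38, which carries glycine into mitochondria for heme synthesis, had an interaction of 0.58 (adjusted p = 0.0109), with 0.15 in B6 and -0.44 in CAST. Slc6a13 had one of 0.48 (adjusted p = 0.0324), with -0.08 in B6 and -0.57 in CAST. The calls of Slc25a47 and Slc6a13 were lost under 15 and 13 of 27 alternative settings, and that of Slc25a38 under 0 of 27.

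For the strain comparison, the naming set most of the counts. As deposited, 67 of 147 solute carriers differed by strain in males (45.6%, against 23.8% of 25779 genes) and 63 in females (42.9%, against 24.4%). Of the 67, 32 were higher in B6 (against 13.4% of all genes) and 35 in CAST (10.4%), and of the 63, 28 were higher in B6 (13.9%) and 35 in CAST (10.4%). Among the names that change place, 52 of 60 were called in males and 49 of 60 in females. With re-paired names, 18 of 145 were called in males (12.4%, against 16.7% of 25679 genes) and 16 in females (11%, against 17.4%). In males 7 of the 18 were higher in B6 (against 9.67% of all genes) and 11 in CAST (7.02%), and in females 5 of the 16 were higher in B6 (10.5%) and 11 in CAST (6.87%). Of the names that change place, 3 of 58 were then called in males and 2 of 58 in females. Among the 87 names that keep their place, 15 (17.2%) were called in males and 14 (16.1%) in females, the same genes under both namings. Over genes with a mean of 1 FPKM or more, 19.9% and 20.3% were called in males and females as deposited, and 8.69% and 9.05% with re-paired names.

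All 41 mitochondrial carriers of the Slc25 family have names that change place. As deposited, 35 of 41 were called by strain in males, 18 higher in B6 and 17 higher in CAST, with a median size of the log2 fold change of 3.9. With re-paired names, 1 of 40 was called and the median size was 0.468. For Slc25a13, the B6 over CAST log2 fold change in males was 6.96 as deposited and -0.65 after re-pairing, and for Slc25a5 it was 2.04 and 0.05. At any fold, 19 of 40 re-paired carriers differed by strain in males (against 32.6% of all genes) and 22 of 40 in females (against 34.3%), 13 and 18 of them higher in CAST. The any-fold share of genes with a mean of 1 FPKM or more was not computed.

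The re-paired calls among mitochondrial carriers were Slc25a33, a pyrimidine nucleotide carrier, at 1.01 in males and 1.06 in females, and Slc25a48, at -1.68 in females. Slc25a33 was at 3.98, 5.1, 5.76, 3.63 and 5 FPKM in B6 males and 2.32, 2.55, 2.51, 1.85 and 2.38 FPKM in CAST males, without overlap. It was close to the 2-fold threshold, and its call was lost in males without B6 male replicate 3 (0.94), B6 male replicate 5 (0.98) or CAST male replicate 4 (0.94), and in females without B6 female replicate 2 (0.91) or CAST female replicate 4 (0.98). By limma on log2(FPKM + 1) it was called in neither sex (0.77 and 0.78), and on log2(FPKM + 0.1) it was not called in males (0.97).

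**Figure D4:**
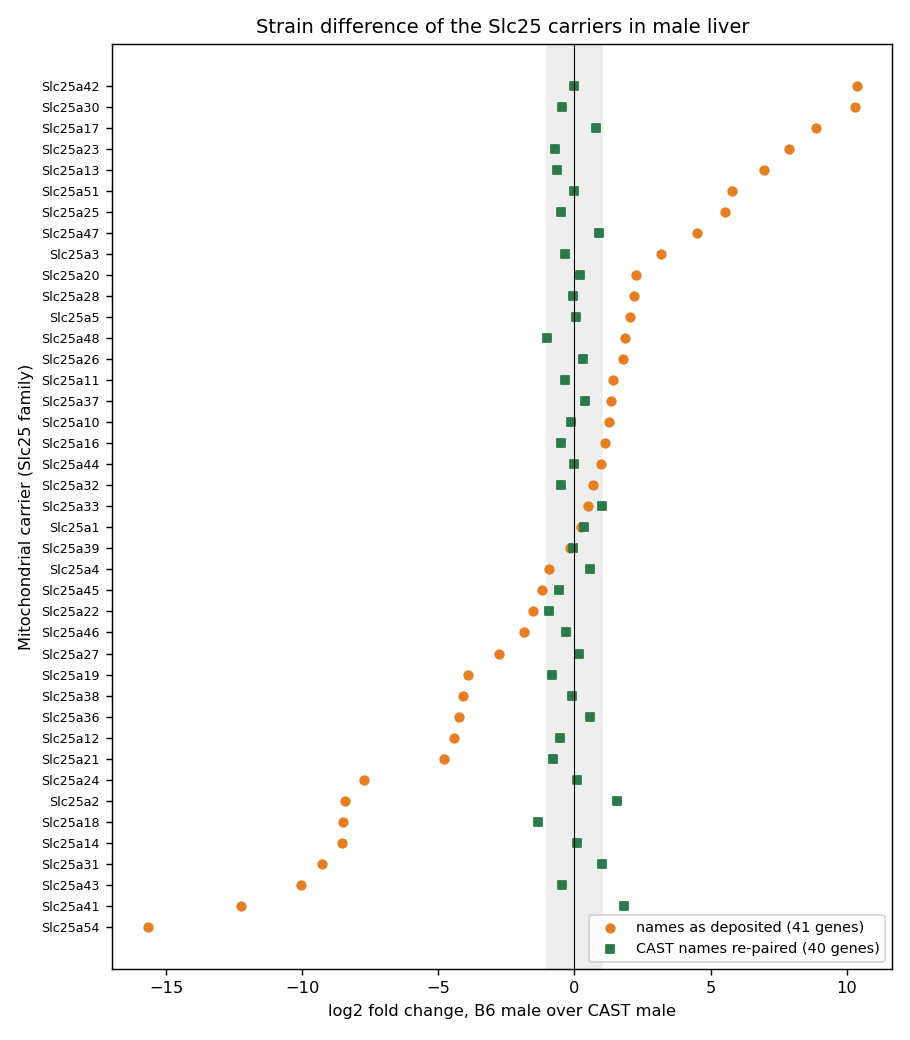
Log2 fold change of B6 males over CAST males (x axis) for the Slc25 mitochondrial carriers (y axis, ordered by the deposited value), where orange circles use names as deposited (41 genes), green squares re-paired CAST names (40 genes), and the grey band marks changes of less than 2-fold. The deposited values reach a size of 15.7, whereas the largest re-paired value is 1.84 in size.

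Among the names that keep their place, 19 genes were called by strain in at least 1 sex and 10 in both, all 10 in the same direction. The threshold of 1 FPKM favours genes with a strain difference: 6 of the 87 had under 1 FPKM in B6 and 5 in CAST, and 4 and 4 of these were among the 19. Of the 76 with 1 FPKM or more in both strains, 9 were called in males and 8 in females. Of all genes with a mean of 1 FPKM or more and re-paired names, 8.69% and 9.05% were called. Those genes still include ones that reached the mean through 1 strain, so the counts are not read against these shares. Of the 10, Slc3a1, Slc10a2 and Slc10a5 were higher in B6, and 7 were higher in CAST (Slc34a2, Slc41a2, Slc44a3, Slc16a6, Slc1a4, Slc2a9 and Slc17a4).

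Slc10a2, the sodium-dependent bile acid transporter of ileum and bile ducts (chr8:5085623-5105232), was at 2.04, 5.54, 2.98, 3.68 and 2.93 FPKM in B6 males and 2.1, 1.56, 2.74, 2.63 and 2.05 FPKM in B6 females. In CAST it was at 0.127, 0.0993, 0.0145, 0.0742 and 0.0941 FPKM in males and 0.11, 0.0903, 0.213, 0.11 and 0.114 FPKM in females. All CAST livers were below all B6 livers, and CAST males rested on 1 to 12 reads each. The B6 over CAST log2 fold change was 5.45 in males (SE 0.329, adjusted p = 4.63e-14) and 4.002 in females (SE 0.289, adjusted p = 2.54e-12). Bile duct markers (3 of 5 with a name that keeps its place) overlapped between the strains, summing to between 5.23 and 23.5 FPKM in B6 and between 5.57 and 9.87 FPKM in CAST.

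Slc3a1, the heavy subunit of the cystine and dibasic amino acid transporter (chr17:85427687-85463583), was at 9.43, 23.2, 9.16, 10.6 and 7 FPKM in B6 males and 12.2, 6.49, 13.4, 12.5 and 10.9 FPKM in B6 females. In CAST it was at 0.449, 0.473, 0.482, 0.279 and 0.754 FPKM in males and 0.289, 0.453, 0.317, 0.415 and 0.372 FPKM in females, all below every B6 liver. The log2 fold change was 4.65 in males (SE 0.291, adjusted p = 1.02e-13) and 4.83 in females (SE 0.287, adjusted p = 3.42e-14). Pancreas acinar markers (4 of 5, with Amy2a5 at 0) summed to between 3.24 and 8.43 FPKM in B6 and between 0.396 and 1.54 FPKM in CAST. Kupffer cell markers were also apart by strain, at between 12.03 and 23.7 FPKM in B6 males against 4.24 and 11.5 FPKM in CAST males, and between 29.3 and 34.1 FPKM in B6 females against 6.84 and 23.4 FPKM in CAST females. Hepatocyte markers were apart in males, at between 20460 and 21420 FPKM in B6 and between 17080 and 19050 FPKM in CAST. The part of these cells in the strain differences was not tested. Slc10a5, a relative of the bile acid transporters, was also higher in B6, with log2 fold changes of 1.29 in males and 1.53 in females (adjusted p = 4.52e-07 and 1.79e-08).

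Slc34a2, a sodium phosphate cotransporter (chr5:53429321-53462903), went the other way. It was at 0.143, 0.0179, 0.236, 0.619 and 0.145 FPKM in B6 males and 0.842, 0.438, 0.387, 0.296 and 0.238 FPKM in B6 females. In CAST it was at 3.3, 3.27, 2.22, 2.61 and 3.15 FPKM in males and 3.07, 3.85, 3.21, 3.71 and 3.9 FPKM in females. No B6 liver reached the lowest CAST liver. The B6 over CAST log2 fold change was -3.71 in males and -3.08 in females (adjusted p = 5.56e-09 and 6.27e-08).

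Slc2a9, a urate transporter (chr5:38740512-38894382), was at 5.43, 5.12, 5.55, 4.27 and 5.71 FPKM in B6 males and 5.53, 5.36, 6.29, 5.29 and 6.33 FPKM in B6 females. CAST males had 11.6, 12.2, 10.1, 11.2 and 12.4 FPKM and CAST females 14.7, 12.5, 12.9, 14.5 and 13.2 FPKM. The strains did not overlap. Its log2 fold changes were -1.11 and -1.32 (adjusted p = 9.74e-11 and 2.71e-12). The other genes higher in CAST in both sexes were Slc44a3, of the choline transporter-like family (-1.38 in males and -1.605 in females), Slc16a6, a monocarboxylate transporter (-1.52 and -1.597), Slc1a4, a transporter of alanine, serine and cysteine (-1.63 and -1.42), and Slc17a4, an organic anion and phosphate transporter (-1.56 and -1.06). The call of Slc17a4 in females was lost without B6 female replicate 2 (-0.999), with library size alone (-0.97) and by limma on log2(FPKM + 1) (-0.93) or log2(FPKM + 0.1) (-0.98). By limma on log2(FPKM + 1), Slc44a3 in males (-0.99) and Slc1a4 in males and females (-0.81 and -0.75) were not called either.

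The remaining genes that keep their place passed in 1 sex. In males, Slc16a5, Slc13a2, a citrate and succinate transporter (2.17), and Slc17a2, a phosphate transporter (1.09), were higher in B6, and Slc13a3 (-1.73) and Slc36a4, a proton-coupled amino acid transporter (-1.64), were higher in CAST. In females, Slc27a1 (1.16) was higher in B6, and Slc2a5 (-2.05), Slc37a4, the glucose 6-phosphate transporter of the endoplasmic reticulum (-1.05), and Slc44a1, a choline transporter (-1.004), were higher in CAST. Slc37a4 lost its call without B6 female replicate 4 (-0.99), with library size alone (-0.96) and by limma on log2(FPKM + 1) (-0.94) or log2(FPKM + 0.1) (-0.97). Slc44a1, named after its values were seen, lies at the 2-fold limit and lost its call under 12 of 28 alternative settings. Over the 28, its log2 fold change ranged from -1.09 to -0.77. By limma on log2(FPKM + 1), Slc16a5 (0.58) and Slc36a4 (-0.94) in males and Slc27a1 (0.697) and Slc2a5 (-0.88) in females were not called. Slc16a10 (-1.22) and Slc16a11 (-1.73), whose names change place, were higher in CAST males after re-pairing. As deposited, the call of Slc16a10 in males ran the other way (1.84).

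**Figure D5:**
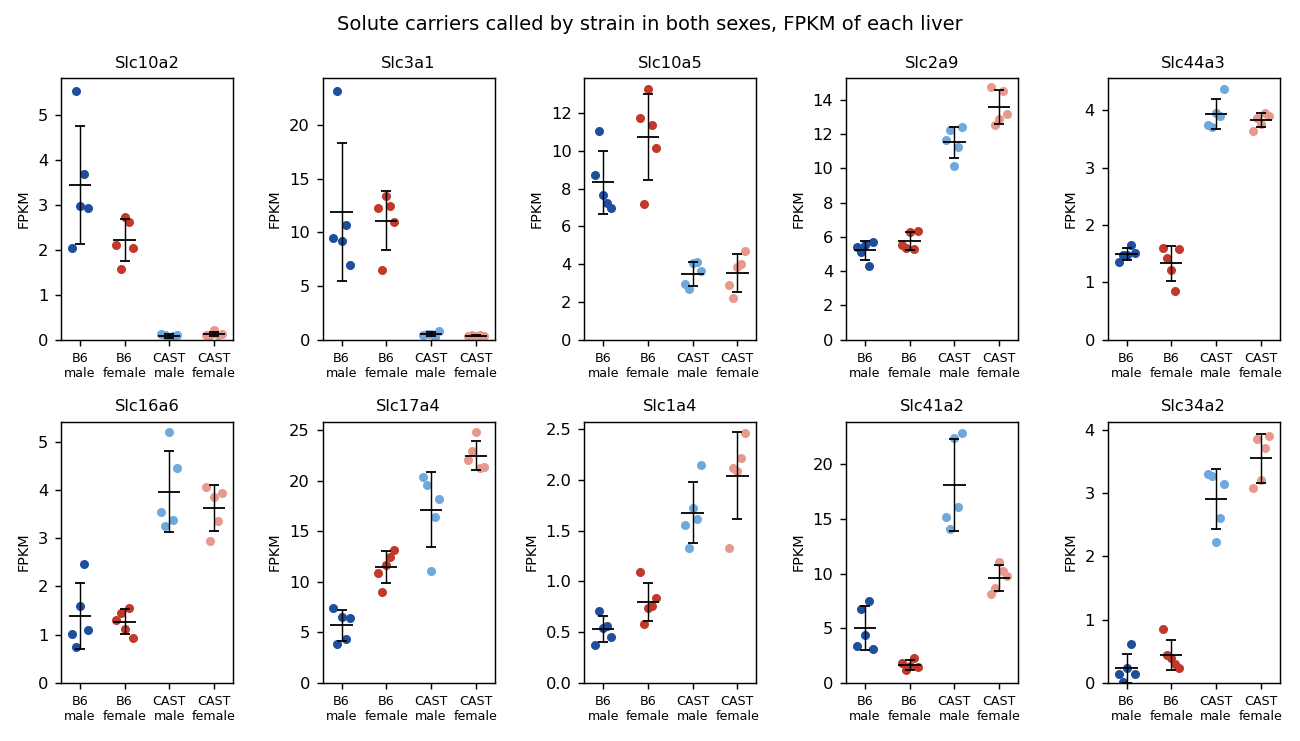
FPKM of each liver (y axis, linear from 0) for the 10 solute carriers that keep their name's place and were called by strain in both sexes, in B6 males, B6 females, CAST males and CAST females (5 livers each); points are livers, horizontal lines group means and error bars SD. Slc10a2, Slc3a1 and Slc10a5 are higher in B6, and the other 7 are higher in CAST.

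By transport group, strain calls with re-paired names in males fell on 5 of 12 phosphate, sulfate and carboxylate transporters, 4 of 8 monocarboxylate transporters, 3 of 9 lipid, bile acid and choline related transporters, 3 of 20 amino acid and peptide transporters, 1 of 8 sugar transporters, 1 of 21 metal transporters and 1 of 40 mitochondrial carriers. In females they fell on 5 of 9 lipid, bile acid and choline related transporters, 3 of 8 sugar transporters, 2 of 12 phosphate, sulfate and carboxylate transporters, 2 of 20 amino acid and peptide transporters, 2 of 40 mitochondrial carriers, 1 of 8 monocarboxylate transporters and 1 of 21 metal transporters. With re-paired names, 16.7% of all genes were called in males and 17.4% in females (8.69% and 9.05% of those with a mean of 1 FPKM or more), but no group's count is read against these shares, since the counts include genes that reached a mean of 1 FPKM through 1 strain: Slc34a2 and Slc13a2 among the phosphate, sulfate and carboxylate transporters, Slc10a2 and Slc27a1 among the lipid related ones, Slc2a5 among the sugar transporters, and Slc3a1, Slc36a4 and Slc1a4, which are all the amino acid transporters called. The ion and bicarbonate transporters (12 genes), the nucleoside, vitamin and heme transporters (9 genes) and the nucleotide sugar transporter family (5 genes) held 0 in either sex. At any fold, 112 of 147 deposited names differed in males (against 38.4% of all genes) and 124 in females (against 39.9%). In the same way, 86 of 145 re-paired solute carriers differed in males (against 32.6% of all genes) and 95 in females (against 34.3%), of which 64 and 67 were higher in CAST. These any-fold shares were not computed for genes with a mean of 1 FPKM or more, so no excess is read from them. The median B6 over CAST log2 fold change was -0.21 in males and -0.246 in females, against 0.0388 and 0 over all genes tested. All genes tested include many of low level, and no such median was computed for genes with a mean of 1 FPKM or more. The solute carriers took between 1.31% and 1.59% of the reads of B6 livers and, re-paired, between 1.65% and 1.86% of those of CAST livers.

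Among 40 other transport genes listed for comparison (organic anion transporting polypeptides, ABC transporters, aquaporins, and partner subunits and pumps), 38 were tested. With re-paired names, 3 were higher in males and 2 in females of B6 (against 1.16% and 1.24% of all genes), and 2 and 5 in CAST (against 0.882% and 1.17%). By strain, 4 were higher in B6 and 5 in CAST among males (against 9.67% and 7.02%), and 2 and 4 among females (against 10.5% and 6.87%). Abcg2, which exports urate and drugs, gave log2 fold changes by sex of 1.16 in B6 and 1.09 in CAST. The drug exporters Abcb1b (1.48 and 1.87) and Abcb1a (-2.23 and -1.28) and Slco1a4, which takes up organic anions (-1.37 and -2.001), were also called in both strains. The water channel gene Aqp4 was called in B6 (2.11), and Cd36, which takes up fatty acids, Abcc4 and Slco4a1 in CAST (-2.52, -2.28 and -4.45). Slco4a1 was at or below 0.0259 FPKM on average in every group. The interaction was called for 1 of the 38 (against 2.01% of all genes), Cd36 (1.83, adjusted p = 0.00133).

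Some of the solute carriers are neighbours in the genome. In mm9, 9 runs of 2 to 4 genes lay close together, the largest being Slc17a2, Slc17a3, Slc17a1 and Slc17a4 at chr13:23898862-24006876. Within it, Slc17a2 was higher in B6 males and Slc17a4 higher in CAST of both sexes. RefSeq promoters of GRCm38.p6, from 250 bases before to 50 after the gene start, matched 112 of the 148 genes. The palindrome TTCNNNGAA, which reads the same on both strands and is the core of the site bound by STAT5, a mediator of growth hormone signalling, was present in 7 of the 112 (6.25%) and in 9.55% of 27025 genes with a promoter. It was in 0 of the 5 sex-called genes with a promoter. It occurred in 3 of the 4 neighbouring Slc17a genes, whose windows are shown with the palindrome in capitals because they lie side by side, at chr13:23806792-23806820, chr13:23839286-23839314 and chr13:23870124-23870152 of GRCm38.p6, on the plus strand. A match of these letters is a description, and binding was not measured here.
Slc17a2: tctttccactTTCAGCGAAgtggcttgtt
Slc17a3: gcccacatagTTCAAAGAAgcaaaagaaa
Slc17a1: ggccatttggTTCCCAGAAggttctagtc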

How the data were processed

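PolyA-selected liver RNA of 20 mice was sequenced by the authors as paired-end reads, mapped with TopHat to mm9 for B6 and, for CAST, to a genome made from mm9 with CAST variants, and counted over exons with featureCounts. The authors deposited whole-number read counts, not normalized, in 1 file for each strain (25690 genes for B6 and 24722 for CAST), and FPKM for all 20 livers. The files also hold the authors' log fold changes, p-values and adjusted p-values, and 24 columns of scaled values or group medians, none of which was used. Whether counting used strand is not given in the sources used here, so overlapping and antisense genes are uncertain.

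Sex was tested in each strain, and strain and the interaction in a fit of the 4 groups, with edgeR 4.0.16 in R 4.3.3 (TMM, quasi-likelihood test, Benjamini-Hochberg over all genes with at least 1 read). The joint fit held 25779 genes as deposited and 25679 re-paired. From it 2028 and 1811 genes were left out, as they were counted in 1 strain and had FPKM above 0 in the other. Tests of names that keep their place are those of the deposited naming, and tests of other solute carriers and of the transport genes listed for comparison are re-paired. Re-paired FPKM were computed from counts and the exon length that counts and FPKM imply. On names that keep their place, the ratio to the deposited values had a median of 1.000, and its 1st and 99th percentiles were 0.980 and 1.021. The models were tested on simulated data: 200 of 200 genes changed 4-fold were called for sex in B6, sex in CAST, strain in males and the interaction, with 3, 2, 5 and 6 false calls. In these data every gene had the same spread, set in advance, and the changed genes were not ones of low count. How the models perform on genes with few reads or a larger spread was therefore not tested.

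The genes and lists were chosen with earlier results of these data known. Re-pairing was chosen after seeing the data. Named genes are those called by sex, the 10 with the largest strain fold changes in each direction, those with an interaction, the 10 highest in FPKM, those at the threshold, and Slc16a5. As deposited, the strain, interaction and level rules also picked names that change place, which are given as counts with examples. Livers of a group differed beyond counting noise (smallest chi-square per degree of freedom 8.08). Each library is a separate mouse. Alternatives used DESeq2 1.42.0 and limma 3.58.1, and other steps Python 3.11.15.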

Additional observations from a re-analysis of the deposited data

Results flagged for a closer look

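Of 252 groups of 5 livers (63 named genes in 4 groups), 8 had a liver far from the other 4 by Dixon's test at the 95% level, which chance gives in about 1 in 20 groups. Slc3a1 was 23.2 FPKM in B6 male replicate 2 against 7 to 10.6 FPKM in the other B6 males, and without that liver the strain difference in males stayed called. Slc36a4 was 1.43 FPKM in B6 female replicate 3 (others 0.867 to 0.948), Slc25a38 was 5.86 FPKM in B6 female replicate 2 (others 4.55 to 4.91), Slc2a5 was 2.05 FPKM in CAST female replicate 1 (others 1.37 to 1.52), and Slc27a2 was 236 FPKM in CAST female replicate 3 (others 290 to 296). With re-paired names, Slc25a17 was 11.5 FPKM and Slc25a23 was 70.9 FPKM in CAST male replicate 3 (others to 10.3 and 65.5), and Slc25a42 was 20.6 FPKM in CAST male replicate 2 (others to 17.6).

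The sex difference differed between strains, by the interaction test, for Slc16a5 (3.20), Slc2a5 (1.22), Slc25a47 (0.85), Slc25a38 (0.58), Slc6a13 (0.48), Slc23a2 (-0.66), Slc4a4 (-0.76), Slc27a1 (-0.82) and Slc13a3 (-1.31). Values are B6 minus CAST log2 fold changes of males over females, re-paired for Slc25a47, Slc25a38 and Slc6a13.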

How the results depend on the processing

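Re-pairing the CAST names, chosen after seeing the data, took the strain calls from 67 to 18 in males and from 63 to 16 in females and the interaction calls from 15 to 9, and turned the direction of, among others, Slc16a10 in males (from 1.84 to -1.22), Slc25a13 (-0.65 in males, -0.91 in females), Slc38a10 (-0.79 and -0.99), Slc25a5 in females (-0.25) and Slc25a26 by sex in CAST (0.0719). Without the fold threshold, calls were 26 by sex in B6, 30 in CAST (29 re-paired), 6 in both strains (7 re-paired), 112 by strain in males (86) and 124 in females (95). With limma on log2(FPKM + 1), they were 3 by sex in B6, 1 in CAST under either naming, and, re-paired, 10 by strain in females and 5 by interaction; limma on log2(FPKM + 0.1) gave 1 by sex in CAST, re-paired. DESeq2 gave 27 interactions (16 re-paired). DESeq2's size factors, library size alone, a filter on low counts (filterByExpr) and, for the sex comparisons, edgeR's exact test left each of these counts within 1.5 times.

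Livers of all groups shared collection days, but the labels do not tie replicate numbers to days, and not every same-numbered pair correlated above 0.1, so the numbers were not taken to pair the livers. The lowest and mean correlations of such pairs were -0.056 and 0.073 between the sexes of B6, -0.089 and 0.164 between those of CAST, -0.163 and -0.068 between males, and 0.056 and 0.149 between females, where all were positive. With the replicate block, calls by sex in both strains were 2 under either naming, the other counts stayed within 1.5 times, and of the named genes Slc17a8 by sex in B6 was no longer called, with a log2 fold change of 0.97. Leaving out each liver gave 6 to 10 calls by sex in B6, 3 to 4 in CAST (2 to 3 re-paired), 1 to 2 in both strains under either naming (2 without CAST male replicate 4 or 5 or CAST female replicate 1, 2 or 3), 67 to 69 by strain in males (17 to 22), 62 to 65 in females (15 to 19) and 6 to 17 interactions (4 to 9). The re-paired interactions were 4 without CAST female replicate 1 and 5 without B6 male replicate 1, B6 female replicate 3 or CAST male replicate 1, and the deposited ones 6 and 8 without replicate 1 of the CAST females and males. The cause was not tested.

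The rule found 165 genes at 0.5 FPKM, 115 at 2 FPKM and 158 with 1 FPKM in at least 1 group. Genes under 1 FPKM rest on few reads in the shallowest library, and differences there may not be detectable at this depth.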
